A study of Mus musculus with 24 samples.

Results

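The genes described here are those whose symbol starts with Nduf, the nuclear genes named for NADH:ubiquinone oxidoreductase, or complex I of the respiratory chain. A probe was taken as a member when its symbol in the platform's annotation, or in the authors' summary table, began with Nduf in either case. This gave 73 of the 45281 probes on the array, for 45 of its 27654 named genes and the probe named last below. Of these, 57 probes stood for 35 complex I subunits, 13 probes for 8 assembly factors (the Ndufaf genes), 1 for Ndufa4, 1 for the pseudogene Ndufs5-ps, and 1 was named NDUFB2 by the authors but Braf by the platform. After dim probes were left out, 65 of the 73 remained, for 34 subunits, 7 assembly factors, Ndufa4 and Ndufs5-ps, and the Braf probe was among those left out. Ndufs1 and Ndufaf6 had only dim probes, and no probe carried the symbol Ndufs5, Ndufa4l2 or Ndufb1.

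Left ventricles of 24 male mice on a mixed background were profiled, 1 array per heart, in a model of dilated cardiomyopathy. The groups were 6 hearts in which EP4 was knocked out in the heart (KO), labelled low ejection fraction (EF), 7 hearts of the same KO labelled high EF, and 11 wild-type (WT) hearts. EP4 is a receptor for prostaglandin E2 encoded by Ptger4, and EF is the share of its blood that the ventricle ejects at each beat. EF ran between 13.7 and 34% in KO low EF, between 45.9 and 76.4% in KO high EF and between 71.4 and 86.1% in WT mice, at ages of 27 to 33.5 weeks in both KO groups and 27 to 33 weeks in WT. Neither the promoter that drove the deletion nor the presence of a recombinase in WT mice is stated in the labels.

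Complex I takes electrons from NADH, passes them to ubiquinone and pumps protons across the inner mitochondrial membrane. Its matrix arm holds the NADH-oxidising module (N), with the flavin site, and the ubiquinone module (Q), both joined by iron-sulphur clusters, and its membrane arm has a proximal and a distal part. A set of conserved core subunits carries out catalysis, while the accessory subunits around them serve assembly and stability. Assembly factors build the enzyme from intermediate modules and are not part of the finished complex. The heart, which makes most of its ATP in mitochondria, is rich in this enzyme. The membrane arm's core subunits are encoded by mitochondrial DNA, and no probe for them was found on the array.

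Promoters of the members are shown because binding motifs of regulators of respiratory genes are known in such promoters. RefSeq windows (GRCm38.p6), running 250 bases before to 50 bases after each gene's start, were at hand for 31 of the 35 subunits and 7 of the 8 assembly factors. The palindromic motif of nuclear respiratory factor NRF1, searched as GCGC, any 2 bases and GCGC again, the same on both strands, was in 8 of the 31 subunit promoters (25.8%) and in 2 of the 7 assembly factor promoters, against 1891 of all 27018 genes with a window (7%). The motif of YY1, searched as AAGATGGCG on both strands, was in 5 of 31 subunit promoters (16.1%) and 1 of 7 assembly factor promoters, against 1.64% of all. The motif of oestrogen-related receptors (ERR), AAGGTCA on both strands, was in 2 of 31 (6.45%) and 0 of 7, against 5.38% of all, and that of ETS factors, CCGGAAG on both strands, in 4 of 31 (12.9%) and 2 of 7, against 9.93% of all. These 4 motifs were the ones searched, and no test was run on the shares. Overlap between motifs was not removed, and 3 promoters held a pair of them: Ndufs6 (NRF1 and YY1), Ndufb4 (NRF1 and ERR, whose letters are left in lower case in the window shown) and Ndufaf8 (ETS and YY1). Of the 10 genes with the NRF1 motif, 8 had it before the start, and 6 of these are shown as examples chosen with their values known. The following windows of 60 bases lie wholly before the start, are written 5′ to 3′ on the gene's strand, and have the NRF1 motif in capitals. In Ndufv2 a further match, overlapping the capitals and shifted by 2 bases, ends in lower-case letters.
Ndufv2, chr17:66101560-66101619, minus strand: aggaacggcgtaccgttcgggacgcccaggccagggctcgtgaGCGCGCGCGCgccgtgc
Ndufs6, chr13:73328483-73328542, minus strand: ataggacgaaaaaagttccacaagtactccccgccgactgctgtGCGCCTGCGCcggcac
Ndufa8, chr2:36049339-36049398, minus strand: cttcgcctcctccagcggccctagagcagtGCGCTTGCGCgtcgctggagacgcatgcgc
Ndufb4, chr16:37654369-37654428, minus strand: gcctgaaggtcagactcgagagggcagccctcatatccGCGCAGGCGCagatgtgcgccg
Ndufab1, chr7:122101894-122101953, minus strand: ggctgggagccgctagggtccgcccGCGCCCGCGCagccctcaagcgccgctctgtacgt
Ndufaf4, chr4:24897945-24898004, plus strand: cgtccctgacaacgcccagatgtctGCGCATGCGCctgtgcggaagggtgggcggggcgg
Each of these 6 genes was called lower in KO low EF than in WT hearts (Ndufs6 on its dimmer probe), with values given below. So were 30 of the 43 Nduf genes with a kept probe, by their brightest probe, and 12.3% of all kept probes. A link between the motif and the falls was not tested. A match is a description of the letters and not of binding.

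Values are log2 levels after background correction and quantile normalization, with an array median of 6.77 and a top of 16.04. A difference is a log2 difference ± standard error (SE), and called means an adjusted p under 0.05 from limma with Benjamini-Hochberg adjustment over all 25425 kept probes. The median raw intensity per array ran between 106 and 155. Of the cardiomyocyte markers, 7 had a kept probe, and all 7 were far above the array median in every group. The 2 Ptger4 probes were dim in all groups, with medians between 6.18 and 7.08, and no difference between groups was called on either, so they gave no check of the knockout.

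The array of KO high EF replicate 11 stood apart and touches every count that uses the KO high EF group. It correlated with the remaining arrays at a median of 0.839, against 0.974 to 0.987 for each of the 23 others. Of 4245 probes that were above 10 on each of the other 23 arrays, 661 (15.571%) lay below the array median there. Among these were 8 Nduf probes, with probes of Ndufs3, Ndufs8, Ndufa5, Ndufb2, Ndufb10, Ndufc2 and Ndufs5-ps among them. They read between 6.05 and 6.29 on that array and at least 11.28 on each of the 23 others. The bright Ndufs6 probe (6.88) and the dimmer Ndufb6 probe (5.94) were also far below their other arrays. Another probe of the same gene had not lost its signal on the same array and read 15.49 for Ndufa5, 14.94 for Ndufb10, 12.07 for Ndufs6 and 15.29 for Ndufb6, the values of Ndufb10 and Ndufb6 being the highest of all 24 arrays. Many other probes read high there. Of all kept probes 48.8% were above every other KO high EF heart and 41.9% above every WT heart, against 14 and 9 of the 34 subunits and 6 and 5 of the 7 assembly factors. Counts and medians below are given with and without this array. Differences of single genes are from the fit with all arrays unless stated. All 45 Nduf probes called in KO low EF against WT with all arrays were called without it too, with estimates that moved by at most 0.008, and so were all 14 called in KO high EF against WT, by at most 0.08.

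**Figure D1:**
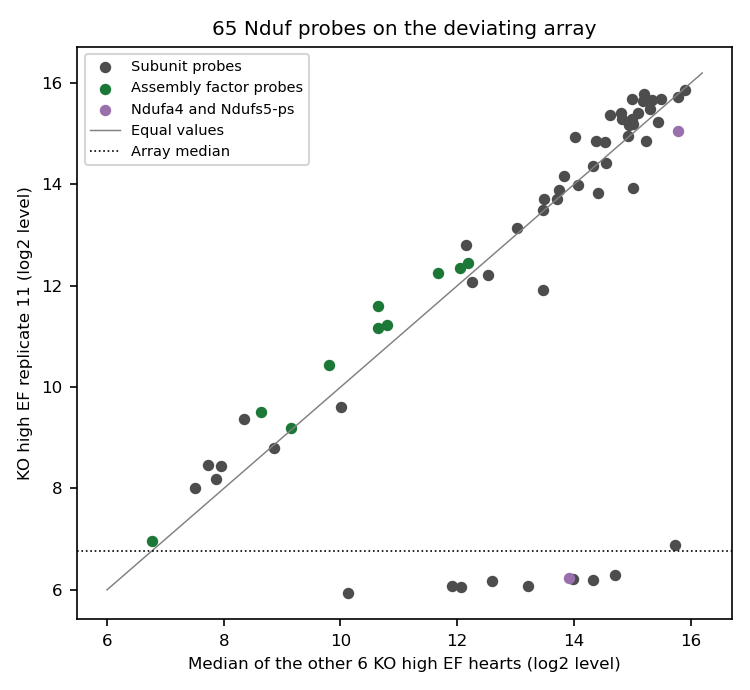
Log2 level of each of the 65 kept Nduf probes on the array of KO high EF replicate 11 (vertical axis) against its median over the other 6 KO high EF hearts (horizontal axis), coloured by class, with the line of equal values and the array median (dotted). A row of probes at 6 to 7, bright in the other hearts, lies far below the line, and most assembly factor probes lie above it.

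In KO low EF hearts, most measured complex I transcripts were lower than in WT. Of the 65 kept probes, 45 fell and 0 rose, where 12.3% of all kept probes fell and 12.1% rose. Without KO high EF replicate 11, which shares in the estimate of the spread, 58 of the 65 fell and 0 rose, against 17.3% and 16.5% of all. Median scaling of the arrays, in place of quantile normalization, called 27 of the 65, all lower, and over all kept probes 3026 higher and 1537 lower, against 3069 higher and 3136 lower with quantile normalization. By gene, with the brightest kept probe standing for each, 25 of 34 subunits and 5 of 7 assembly factors fell, and 32 of 34 and 5 of 7 without that array. The median difference was -0.44 over subunits and -0.34 over assembly factors (-26.2% and -20.9% on a linear scale), against -0.01 over all kept probes. Of the 8 probes that failed on replicate 11, 0 were called by limma with it, with SEs of 0.57 to 0.80, and 8 without it, with SEs of 0.07 to 0.13. No member rose by limma in any of the 3 group comparisons with or without replicate 11, and at an unadjusted p under 0.05 there were 0 rises too. In 34 of the 65 probes every KO low EF heart lay below every WT heart, and in 0 above, where each held for 6.16% of all kept probes. In bulk tissue, fewer cells of a type and less RNA per cell cannot be told apart.

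**Figure D2:**
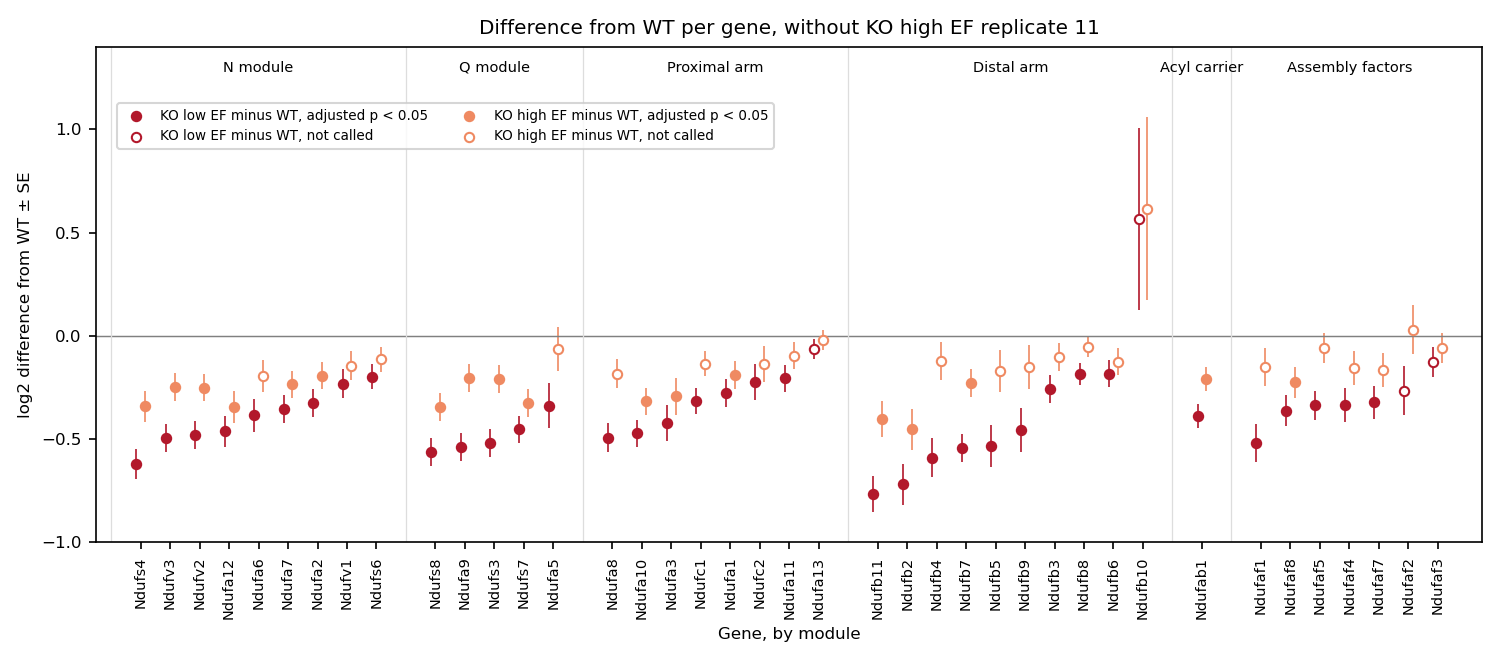
Log2 difference from WT ± SE per gene (vertical axis) for KO low EF (red, left of each pair) and KO high EF (orange, right), by module, in the fit without KO high EF replicate 11. Filled points were called and open points were not. Nearly all genes lie below 0 in both comparisons, with the KO low EF point the lower of the pair, and the Ndufb10 probe with the higher mean is the one far above 0. On that probe WT replicates 10 and 11 read far below the other WT hearts.

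Ndufs3 and Ndufs8, core subunits of the Q module, had probes that failed on replicate 11 and were called lower in KO low EF when that array was left out. Ndufs3 read 14.19, 14.37 and 14.45 (lowest, median, highest) in KO low EF hearts and 14.78, 14.82 and 15.12 in WT hearts, with no overlap. Its difference was -0.52 ± 0.07 without replicate 11 (adjusted p = 4.7e-07) and -0.52 ± 0.80 with it (adjusted p = 0.75). Ndufs8, which carries iron-sulphur clusters, read 13.98, 14.08 and 14.25 in KO low EF hearts and 14.46, 14.64 and 14.89 in WT hearts, again with no overlap. The difference was -0.56 ± 0.07 (adjusted p = 1.7e-07) without replicate 11 and -0.56 ± 0.78 (adjusted p = 0.71) with it. The estimates were the same to 2 decimals in both fits, and the SEs were larger with the array.

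Ndufs7, the core subunit that holds the last iron-sulphur cluster before ubiquinone, fell by 0.45 ± 0.09 in KO low EF hearts (adjusted p = 0.00035). It read 14.83, 14.88 and 15.05 in KO low EF hearts, 14.88, 15 and 15.68 in KO high EF hearts and 15.10, 15.39 and 15.49 in WT hearts. Ndufv1, the subunit with the flavin and the NADH site, changed less: it fell by 0.23 ± 0.07 (adjusted p = 0.017). Its KO low EF hearts read 15.19, 15.32 and 15.64 and overlapped the WT hearts at 15.40, 15.63 and 15.78. Ndufv2, its partner, fell by 0.48 ± 0.07 (adjusted p = 1.0e-05), and its KO low EF hearts, at 14.73, 14.83 and 15.06, lay below all WT hearts, at 15.16, 15.34 and 15.51.

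Among accessory subunits of the N module, Ndufs4 and Ndufv3 had the probes with the smallest p. Ndufs4, whose loss in mice causes a Leigh-like encephalopathy, had 4 kept probes, all lower in KO low EF than in WT, with differences between -0.59 and -0.68, each called. Its brightest probe read 13.96, 14.15 and 14.27 in KO low EF hearts, 13.84, 14.40 and 14.57 in KO high EF hearts and 14.58, 14.75 and 15.06 in WT hearts. Both KO groups lay below every WT heart, and the lowest KO high EF value was that of replicate 11. Its probes with the smallest p read 11.96, 12.18 and 12.41, and 12.87, 13.11 and 13.21, in KO low EF hearts. The same probes read 12.21, 12.52 and 12.59, and 13.31, 13.51 and 13.61, in KO high EF hearts and 12.66, 12.85 and 13.07, and 13.51, 13.73 and 14.08, in WT hearts. All KO low EF hearts lay below all WT hearts on both. Ndufv3, which has splice forms that differ between tissues in mammals, fell by 0.62 ± 0.07 (adjusted p = 8.7e-08) and by 0.49 ± 0.07 (adjusted p = 1.4e-05) on its bright probes. The one with the smaller p read 14.59, 14.68 and 14.74 in KO low EF hearts, 14.74, 14.96 and 15.09 in KO high EF hearts and 15.14, 15.28 and 15.58 in WT hearts, so that both KO groups lay below every WT heart. Its dim probe, at a WT mean of 7.82, differed by -0.06 ± 0.11 (adjusted p = 0.79).

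Over the 9 N module genes with a kept probe the median difference was -0.39 and 8 fell. Over the 6 Q module genes it was -0.53 and 4 fell, and over the 8 of the proximal membrane arm it was -0.30 and 6 fell. Over the 10 of the distal membrane arm it was -0.50 and 6 fell. Without KO high EF replicate 11 the counts became 9 of 9, 6 of 6, 7 of 8 and 9 of 10, and these medians moved by less than 0.01. The modules were not tested against one another.

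**Figure D3:**
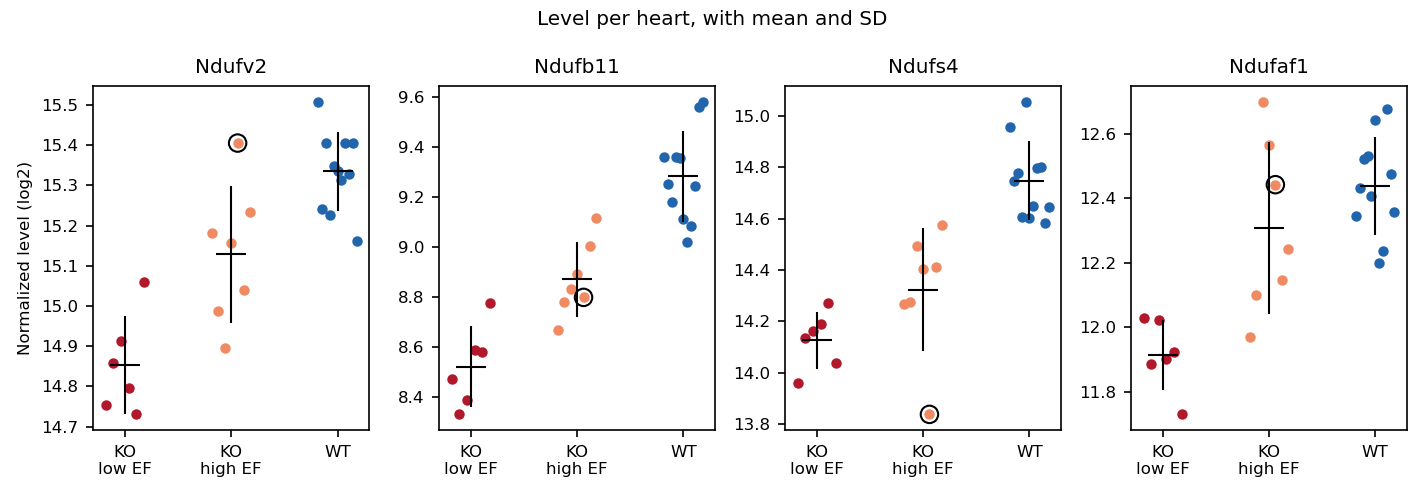
Normalized log2 level (vertical axes, each with its own range) of Ndufv2, Ndufb11, Ndufs4 and Ndufaf1 in every heart, with the mean and SD as black marks and KO high EF replicate 11 ringed. In all 4 panels the KO low EF hearts lie below the WT hearts, and the KO high EF hearts spread between or across them.

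The largest called fall among the brightest probes of the genes was that of Ndufb11, a distal arm subunit encoded on the X chromosome. It read 8.33, 8.53 and 8.78 in KO low EF hearts, 8.67, 8.83 and 9.12 in KO high EF hearts and 9.02, 9.25 and 9.58 in WT hearts. No KO low EF heart reached the lowest WT heart, and the KO high EF hearts overlapped both other groups. The difference was -0.76 ± 0.09 for KO low EF against WT (adjusted p = 3.2e-07), or -41.0% on a linear scale, and -0.41 ± 0.08 for KO high EF against WT (adjusted p = 0.0012). Ndufb4 (-0.59 ± 0.10), Ndufb7 (-0.55 ± 0.09) and Ndufb5 (-0.54 ± 0.11), further distal arm subunits, also fell in KO low EF. Ndufb2, a distal arm subunit whose only kept probe failed on replicate 11, fell by 0.72 ± 0.10 without that array (adjusted p = 1.4e-06).

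In the proximal arm, Ndufa8 fell by 0.50 ± 0.13 (adjusted p = 0.004) and Ndufa10 by 0.47 ± 0.07 (adjusted p = 5.2e-06) in KO low EF hearts. Ndufa9, a Q module subunit that binds a nucleotide cofactor, fell by 0.54 ± 0.07 (adjusted p = 2.9e-06). Ndufab1, the mitochondrial acyl carrier protein that also serves fatty acid and lipoate synthesis, fell by 0.39 ± 0.06 (adjusted p = 1.4e-05). Its KO low EF hearts read 15.26, 15.27 and 15.57, below all WT hearts at 15.61, 15.75 and 15.79. A dimmer Ndufab1 probe had a smaller p (-0.53 ± 0.06, adjusted p = 1.6e-07) and read 14.25, 14.39 and 14.57 in KO low EF hearts, 14.40, 14.54 and 14.64 in KO high EF hearts and 14.73, 14.94 and 15.02 in WT hearts. The smallest change of a subunit was that of Ndufa13, also known as GRIM-19, at -0.08 ± 0.05 (adjusted p = 0.25) and a level of 15.93 in WT, close to the top of the scale. Its KO low EF hearts still lay below all WT hearts, by a narrow margin (highest KO low EF heart 15.874, lowest WT heart 15.88).

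Ndufb10 was the subunit whose probes disagreed in sign. Its probe with the higher mean over all arrays read 13.03, 14.03 and 14.09 in KO low EF hearts but 10.60, 13.66 and 14.66 in WT hearts, with an SD of 1.35 in WT. On this probe WT replicates 10 and 11 stood apart at 10.60 and 10.88, while the other WT hearts read 13.22 to 14.66. The difference of 0.57 ± 0.47 was not called (adjusted p = 0.47). The other probe, which failed on replicate 11, read 12.15, 12.28 and 12.73 in KO low EF hearts, below all WT hearts at 12.88, 13.39 and 13.84. Without that array its difference was -1.01 ± 0.13 (adjusted p = 7.2e-07). Where each probe lies in the transcript was not examined here.

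Assembly factors were lower in level than subunits, with WT means between 8.71 and 12.44 against 9.28 to 15.93, although levels of different probes cannot be set against each other exactly. Ndufaf1, which joins intermediates of the membrane arm, fell the most. It read 11.73, 11.91 and 12.03 in KO low EF hearts, 11.97, 12.24 and 12.70 in KO high EF hearts and 12.20, 12.43 and 12.68 in WT hearts. KO low EF hearts lay below all WT hearts, and KO high EF hearts overlapped both. The roles of assembly factors given here are known mainly from human cells. The difference was -0.52 ± 0.09 for KO low EF against WT (adjusted p = 0.00013) and -0.13 ± 0.09 for KO high EF against WT (adjusted p = 0.37).

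Ndufaf5, which modifies the core subunit Ndufs7, fell by 0.34 ± 0.09 in KO low EF (adjusted p = 0.0047) on its brighter probe and by 0.40 ± 0.09 (adjusted p = 0.0016) on the other. It read 10.00, 10.39 and 10.48 in KO low EF hearts, 10.50, 10.68 and 11.18 in KO high EF hearts and 10.51, 10.69 and 10.91 in WT hearts. On this brighter probe the KO low EF hearts lay below every heart of the other groups, and the highest KO high EF value was that of replicate 11. On the other probe the groups overlapped. KO low EF replicate 6 read 9.09 there, above the lowest KO high EF heart (9.01) and the lowest WT heart (8.98). Ndufaf7, a methyltransferase needed for assembly, fell by 0.32 ± 0.10 (adjusted p = 0.017). It read 9.51, 9.64 and 9.89 in KO low EF hearts, 9.55, 9.85 and 10.43 in KO high EF hearts and 9.75, 10.01 and 10.20 in WT hearts, so the groups overlapped.

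Ndufaf4, an early assembly factor, fell by 0.34 ± 0.09 in KO low EF (adjusted p = 0.0052). It read 11.60, 11.84 and 12.00 in KO low EF hearts, 11.77, 12.07 and 12.35 in KO high EF hearts and 11.90, 12.22 and 12.46 in WT hearts, with overlap between all groups. Ndufaf8, a partner of Ndufaf5, fell by 0.37 ± 0.11 (adjusted p = 0.017) on its brighter probe. That probe read 10.34, 10.60 and 10.75 in KO low EF hearts, 10.59, 10.66 and 11.61 in KO high EF hearts and 10.77, 10.94 and 11.08 in WT hearts, and its KO low EF and WT hearts did not overlap. The dimmer Ndufaf8 probe, near the array median, differed by -0.17 ± 0.10 (adjusted p = 0.26).

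Ndufaf2 and Ndufaf3 were the assembly factors with no called difference. Ndufaf2, which binds a late intermediate, read 10.95, 11.42 and 11.69 in KO low EF hearts, 11.63, 11.69 and 12.25 in KO high EF hearts and 11.11, 11.65 and 12.05 in WT hearts. Its difference was -0.27 ± 0.13 for KO low EF against WT (adjusted p = 0.17). Ndufaf3, which works with Ndufaf4, read 8.51, 8.59 and 8.64 in KO low EF hearts, 8.50, 8.66 and 9.52 in KO high EF hearts and 8.41, 8.66 and 9.00 in WT hearts, at -0.13 ± 0.11 (adjusted p = 0.49). The KO low EF hearts of both genes lay inside or across the WT range. With median scaling, 1 of the 7 assembly factors was called in KO low EF against WT, and 2 of 7 without replicate 11.

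Assembly factors with names outside the Ndufaf set were lower too. Of 9 with a kept probe (of 11 listed), 5 fell and 0 rose in KO low EF hearts, with a median of -0.42, and without replicate 11 all 9 fell. Ecsit fell by 0.64 ± 0.07 (adjusted p = 4.0e-07), Acad9 by 0.55 ± 0.12 (adjusted p = 0.00069), Dmac2 by 0.42 ± 0.06 (adjusted p = 8.0e-06) and Tmem186 by 0.41 ± 0.07 (adjusted p = 8.8e-05). Ecsit and Acad9 act together with Ndufaf1 on the membrane arm. Foxred1, whose probe also failed on replicate 11, differed by -0.50 ± 0.50 with that array (adjusted p = 0.57) and was called without it (adjusted p = 5.1e-07).

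In KO high EF hearts fewer members fell. Without replicate 11, the KO low EF mean was the lower of the KO means for 34 of 34 subunits and 7 of 7 assembly factors. The same held for 12563 of all 25144 kept probes. For the higher-mean Ndufb10 probe both KO means lay above WT. With all arrays, 14 of the 65 probes fell and 0 rose, where 5.9% of all kept probes fell and 8.5% rose. Without replicate 11, 31 of 65 fell and 0 rose, where 9.57% of all fell and 9.43% rose. By gene, 8 of 34 subunits fell with all arrays and 18 without replicate 11, and the median difference was -0.18 and -0.19. Among assembly factors 0 of 7 fell by limma with all arrays (0 at an unadjusted p under 0.05) and 1 of 7 without it (Ndufaf8, -0.23 ± 0.08, adjusted p = 0.034), and their median was -0.08 and -0.15. Over all kept probes the medians were 0.01 and -0.01. These 18 subunits and Ndufaf8 were all called in KO low EF against WT in the same fit as well, but both comparisons share the WT hearts. With median scaling, 10 of the 65 probes were called in KO high EF against WT with all arrays and 11 without replicate 11, all lower. Of all kept probes it called 983 higher and 727 lower with all arrays, and 2289 and 744 without replicate 11.

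Subunits called in KO high EF with all arrays included Ndufb11 (above) and Ndufs4 (-0.42 ± 0.09, adjusted p = 0.0012). Ndufa12, an accessory subunit of the N module, differed by -0.35 ± 0.07 (adjusted p = 0.0012), Ndufv3 by -0.30 ± 0.07 (adjusted p = 0.0042) and Ndufa10 by -0.29 ± 0.06 (adjusted p = 0.0024). Core subunits Ndufs8 (-0.35 ± 0.07, adjusted p = 0.00044) and Ndufs7 (-0.33 ± 0.07, adjusted p = 0.00075) were called without replicate 11. In 6 of the 65 probes every KO high EF heart, with or without replicate 11, lay below every WT heart, where 1.09% of all kept probes did so with that array and 2.04% without it. In 0 probes did every KO high EF heart lie above every WT heart, against 2.16% of all with that array and 2.85% without it. These probes were those of Ndufs8 and Ndufs5-ps, 2 of Ndufs4, and 1 each of Ndufab1 and Ndufv3. Ndufs8 and Ndufs5-ps reached this with a failed value on replicate 11, and did so without it too.

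Set against each other, KO low EF hearts were lower than KO high EF hearts at fewer members. With all arrays 10 of 65 probes fell and 0 rose, where 1.99% of all kept probes fell and 0.932% rose. Without replicate 11, 13 of 65 fell and 0 rose, where 2.44% of all fell and 1.85% rose. Of the 10, 9 were called without it too, and 1 Ndufv3 probe was not. By gene these were 5 of 34 subunits (7 without replicate 11) and 2 of 7 assembly factors (2 without it), at medians of -0.19 and -0.27 (-0.18 and -0.18 without it). The 2 assembly factors were Ndufaf1 (-0.39 ± 0.10, adjusted p = 0.038) and Ndufaf5 (-0.36 ± 0.10, adjusted p = 0.041). Ndufb7 (-0.41 ± 0.10, adjusted p = 0.024), Ndufb4 (-0.41 ± 0.11, adjusted p = 0.042), Ndufa9 (-0.38 ± 0.08, adjusted p = 0.011) and Ndufb11 (-0.35 ± 0.10, adjusted p = 0.048) were among the subunits. By limma, 0 of 65 probes were called under median scaling of the arrays, with or without replicate 11 (0 and 23 were lower at an unadjusted p under 0.05), and 2 with the prefix of the array label as a block. Over all kept probes, median scaling called 12 higher and 6 lower with all arrays, against 237 and 506 with quantile normalization. Without replicate 11, all 65 probes were on the lower side in KO low EF hearts, where 12563 of all 25144 kept probes were. In 7 of 65 every KO low EF heart lay below every KO high EF heart, where 1.16% of all kept probes did so and 0.799% lay the other way.

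Within the 13 KO hearts, levels were also fitted against the measured EF, which is the number the KO groups were named by. With all arrays 7 of 65 probes had a called positive slope and 0 a negative one, where 1.33% of all kept probes had a positive and 0.661% a negative one. Without replicate 11 there were 15 positive slopes, 14 of them of subunit probes, and 0 negative ones, against 3.11% and 2.51% of all. The steepest called slope of a gene's brightest probe was that of Ndufb11, at 0.12 ± 0.02 per 10 points of EF (adjusted p = 0.014), followed by Ndufa9 at 0.11 ± 0.02 (adjusted p = 0.033) and Ndufa5 at 0.10 ± 0.02 (adjusted p = 0.024). Ndufaf5 was the 1 assembly factor called, without replicate 11, at 0.09 ± 0.02 (adjusted p = 0.031). The median slope was 0.06 over subunits and 0.08 over assembly factors, and 0.06 over both without replicate 11. With the array label's prefix as a block, 0 of 65 slopes were called by limma with all arrays (20 were positive at an unadjusted p under 0.05) and 4 without replicate 11. Median scaling gave 0 and 4. Over all kept probes the block called 0 and 556 slopes, and median scaling 0 and 602.

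Per heart, the median subunit lay between -0.46 and -0.33 from the WT mean in KO low EF hearts, between -0.35 and -0.05 in KO high EF hearts and between -0.05 and 0.06 in WT hearts. The KO low EF and WT hearts did not overlap. The KO high EF hearts reached into the KO low EF range, replicate 8 lying at -0.35. They did not reach the WT range, by a narrow margin (highest KO high EF heart -0.0497, lowest WT heart -0.0454). That highest KO high EF heart was replicate 11, and without it the highest was replicate 10 at -0.0666. For assembly factors the range was -0.41 to -0.23 in KO low EF hearts, -0.33 to 0.50 in KO high EF hearts and -0.16 to 0.08 in WT hearts. The highest KO high EF value was that of replicate 11, and without it the highest was 0.01. Thus the KO low EF and WT hearts did not overlap for assembly factors either. No test was run on these medians.

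**Figure D4:**
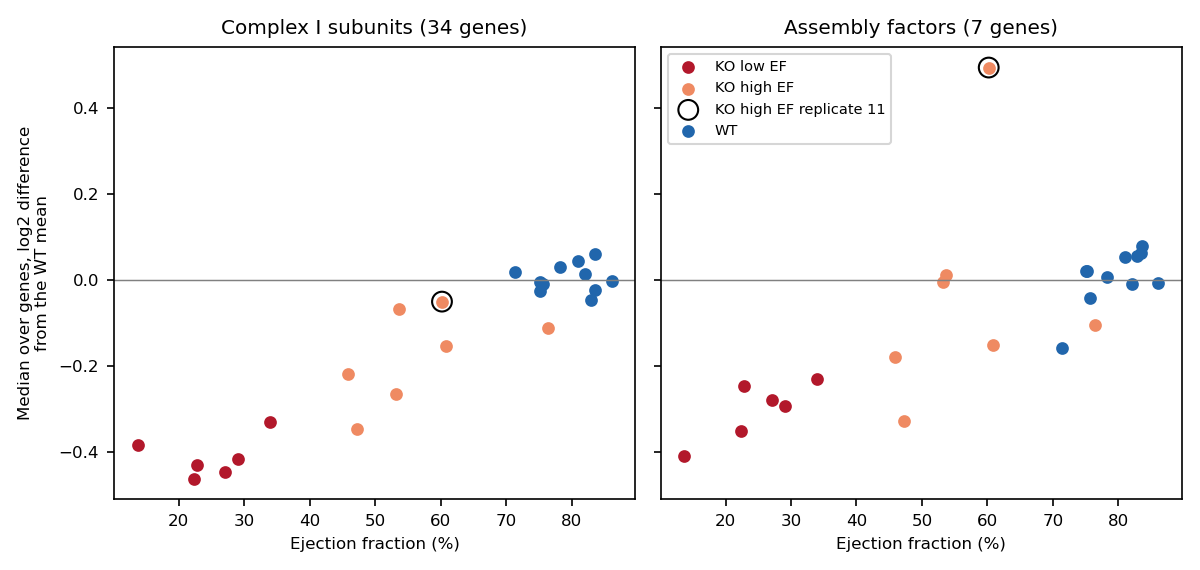
Median over 34 subunits (left) and 7 assembly factors (right) of the log2 difference from the WT mean, for each heart (vertical axis), against its EF in percent (horizontal axis). KO low EF hearts lie between -0.46 and -0.33 on the left and between -0.41 and -0.23 on the right, with 1 KO high EF heart among them in each panel (-0.35 and -0.33), and the ringed KO high EF replicate 11 stands at 0.50 on the right.

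The prefix of the array label, which may name the chip, was unevenly spread over the groups, so the medians were also taken within it. For KO low EF against WT, 3 prefixes held both groups, with 1, 2 and 3 KO hearts and 4, 3 and 1 WT hearts. Within them the subunit median was -0.43, -0.35 and -0.44, and the assembly factor median was -0.28, -0.31 and -0.40. For KO high EF against WT, the 4 prefixes held 1, 1, 2 and 3 KO hearts and 4, 3, 1 and 3 WT hearts. The subunit median within them was -0.36, -0.18, -0.21 and -0.17 (the last -0.18 without replicate 11). There the assembly factor median was -0.30, -0.25, 0.02 and 0.05, the last -0.13 without replicate 11. Subunits were thus on the lower side within every prefix, though several of these medians rest on a single heart of a group. Assembly factors in KO high EF were on the higher side in the prefix with 1 WT heart, and in the last only with replicate 11.

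Many subunits lay near the top of the scale. A group mean was within 1 log2 unit of the top of the scale for 20 of the 65 Nduf probes, against 0.818% of all kept probes and none of the assembly factor probes. Raw intensity exceeded 50% of the array's highest value on at least 1 array for 24 probes, and on every array for 2. The median difference of KO low EF from WT was -0.39 over the 17 subunits near the top and -0.52 over the 17 others. Probes of the same gene gave a closer look: of 8 genes whose brightest probe was near the top, that probe fell less than the dimmest probe in 6, and so it did in 6 of the 9 genes whose brightest probe was not near the top. The latter 6 include Ndufb10, whose probe with the higher mean did not fall (0.57 ± 0.44 without replicate 11). They also include Ndufb6, whose brightest probe had a WT mean of 15.005, just under the limit of 15.04. Ndufs6, an N module subunit near a zinc site, fell by 0.47 ± 0.08 on its dimmer probe (adjusted p = 3.6e-05) and by 0.20 ± 0.06 on its bright one (adjusted p = 0.012), both without replicate 11. That dimmer probe read 11.97, 12.06 and 12.21 in KO low EF hearts, below all WT hearts at 12.31, 12.52 and 12.88. Ndufa5 showed the same order, with 0.70 ± 0.11 on the dimmer and 0.34 ± 0.11 on the brighter probe as falls. On the brighter Ndufa5 probe WT replicate 1 read 14.51, against 15.32 to 15.56 in the other WT hearts, which makes that fall smaller. Among the dimmest probes, those of Ndufv3 and Ndufaf8 were not called (above), while others differed more, such as those of Ndufb11 (-0.33 ± 0.10), Ndufc2 (-0.35 ± 0.11) and Ndufb8 (-0.48 ± 0.09) without replicate 11.

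**Figure D5:**
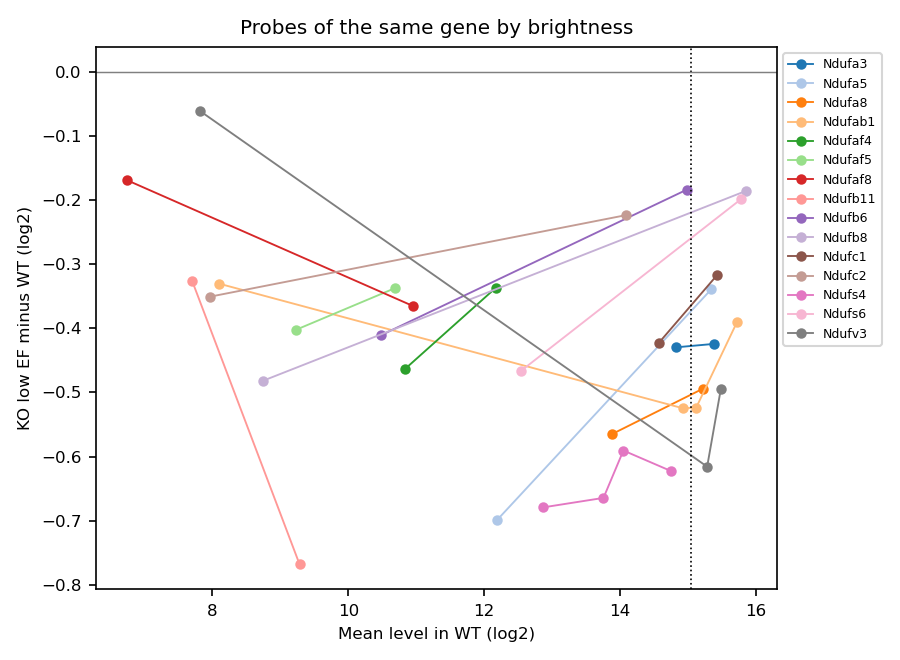
Log2 difference of KO low EF from WT (vertical axis, without KO high EF replicate 11) against the WT mean level (horizontal axis) for kept probes of 15 genes with several, joined by a line per gene, Ndufb10 left out. The dotted line marks 15.04, which is 1 unit below the top. Several lines climb toward the right end, such as that of Ndufs6 between -0.47 and -0.20. Others go down, such as that of Ndufb11, from -0.33 to -0.77 at a WT mean of 9.31. On the left the dimmest probes of the genes lie between -0.06 (Ndufv3) and -0.48 (Ndufb8).

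Ndufa4, once counted with complex I and now held to be a subunit of cytochrome c oxidase, was not called in any comparison. It read 15.61, 15.72 and 15.83 in KO low EF hearts, 15.05, 15.79 and 15.91 in KO high EF hearts and 15.74, 15.82 and 16.02 in WT hearts. Its difference was -0.11 ± 0.09 for KO low EF against WT (adjusted p = 0.47) at a level close to the top. The pseudogene Ndufs5-ps, whose probe could also read its parent gene Ndufs5, differed by -0.48 ± 0.07 without replicate 11 (adjusted p = 5.5e-06).

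Other mitochondrial genes were lower alongside the Nduf genes in KO low EF hearts. Of 23 kept genes of the other respiratory complexes, 14 fell and 0 rose, at a median of -0.31 (16 fell without replicate 11). Sdhd (-0.73 ± 0.08) of complex II, Uqcrc1 (-0.55 ± 0.07) of complex III, Cox7b (-0.72 ± 0.09) of complex IV and Atp5pb (-0.53 ± 0.07) of the ATP synthase were among them. Of 12 genes for mitochondrial mass and biogenesis 6 fell, at a median of -0.38 (9 without replicate 11), led by the coactivator Ppargc1a (-0.88 ± 0.09), which drives mitochondrial gene expression. Nrf1, which encodes the factor of the promoter motif above, differed by 0.01 ± 0.09 (adjusted p = 0.96).

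Markers of other cell types moved in the same comparison. Macrophage markers rose in 8 of 8 and fibroblast markers in 7 of 8, with summed linear levels of 19151 to 21788 and 58633 to 87791 in KO low EF hearts, against 7779 to 10587 and 40407 to 50567 in WT hearts. Cardiomyocyte markers fell in 3 of 7, which were Tnni3 (-0.59 ± 0.09), Ryr2 (-0.50 ± 0.07) and Pln (-0.72 ± 0.09). The other 4, Myh6, Actc1, Myl2 and Mb, read within 1 unit of the top in every group, make up most of the summed level and were not called. The summed level of the 7 was 279444 to 287668 in KO low EF hearts, against 301497 to 322508 in WT hearts. Endothelial markers moved in 0 of 7, and smooth muscle markers rose in 2 of 6. Their part in the Nduf differences was not tested.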

How the data were processed

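RNA of the left ventricle was extracted with a Qiagen kit for fibrous tissue, checked on an Agilent Bioanalyser and labelled with biotin by an Illumina kit, per the labels' protocols. BeadStudio (no version) and R 2.8.0 are named in the submitters' processing notes, and no genome build is given in the sources used here. The intensity values that the authors deposited without normalization are linear, cover 45281 probes and come with no stated background setting. The authors' deposited normalized table holds log2 values with the same distribution on every array, and served as an alternative. The authors' deposited summary table holds log2 group means of those values, their group standard deviations (a unit other than a level) and a p-value per probe, and was used only to name probes.

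From the intensities, background was corrected with normexp (offset 50), and the log2 values were set to equal quantiles across arrays with limma 3.58.1 (R 4.3.3, data.table, version 1.17.8). Probes above their array's median on at least 6 arrays were kept, 25425 in all. Without KO high EF replicate 11, normalization and filter were repeated, leaving 25144. Groups were compared in 1 limma fit with 3 group means over 24 arrays, and slopes on EF were fitted over the 13 KO arrays. Two-sided p-values were adjusted (Benjamini-Hochberg) over the whole kept set and called under 0.05. Precision is limited by the number of arrays. The procedure was tested on simulated data.

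The summary table was joined by its group means, within a tolerance of 2e-06, for all 45281 probes. Where a gene had several kept probes, the one with the highest mean over all arrays stood for it. By rule, group values were given for the core subunits, every Ndufaf gene, Ndufa4 and the 5 subunit probes with the smallest p in KO low EF against WT. Genes whose probes disagreed were named too, and for some of these and of the core subunits values of 1 KO group or of 1 probe are given. Some further members are given by their difference alone, and the values of 1 member are not reported here, though it stays in the counts and medians. The members and lists were chosen with earlier results of these data known, so counts over them are descriptions. Summed marker levels are sums of linear values. Replicate numbers of KO and WT hearts did not pair the samples, since correlations of same-numbered deviations ran between -0.011 and 0.183. Alternatives were median scaling, no background correction, other filters on dim probes, trend and robust fitting, array weights, the authors' values, the label prefix and the replicate number as blocks, all kept probes of each gene, and leaving out replicate 11. The loss of bright probes and median scaling without replicate 11 were chosen after seeing the data.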

Additional observations from a re-analysis of the deposited data

Results flagged for a closer look

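In groups of 4 to 10 hearts, the end value of a group was set against Dixon's critical value for 27 probes of the 20 genes chosen by rule for group values. The WT group, of 11 hearts, was over this size and was not screened. Of 54 KO groups tested, 11 held such a value, where chance gives about 1 in 20, and 9 of the 11 were KO high EF replicate 11. Deviating WT values were thus not counted, such as WT replicate 1 on the brighter Ndufa5 probe (14.51, against 15.32 to 15.56 in the other WT hearts). On that array 5 probes stood far below the rest of their group, at 6.07 for the dimmer Ndufa5 probe, 6.18 for one Ndufb10 probe, 6.29 for Ndufs3, 6.88 for the bright Ndufs6 probe and 6.19 for Ndufs8. Ndufa4, at 15.05, was below its group by a smaller step. Ndufaf2 (12.25), Ndufaf3 (9.52) and Ndufaf5 (11.18) stood above their group on the same array. The other two values were Ndufaf5 in KO low EF replicate 1, at 10, and the Ndufb10 probe with the higher mean in KO low EF replicate 3, at 13.03, both below their group.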

How the results depend on the processing

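Direction held for the medians of subunits and assembly factors in all 4 comparisons under every alternative. With the authors' values, no background correction, or trend and robust fitting, every count stayed within 1.5 times. Without KO high EF replicate 11, Nduf probes called were 31 in KO high EF against WT and 15 for the slope (1415 of all probes), and the assembly factor medians were -0.15 in KO high EF against WT and -0.18 in KO low EF against KO high EF. Median scaling gave 27 Nduf calls in KO low EF against WT with an assembly factor median of -0.21. In KO high EF against WT it gave 1710 calls of all probes and a subunit median of -0.38 (-0.21 without replicate 11). For KO low EF set against KO high EF it gave 18 and 0 calls (all and Nduf probes). The medians of subunits and assembly factors there were -0.06 and -0.07, where that of all kept probes was 0.08. For the slope there were 0 and 0 calls with medians of 0.02 and 0.02, against -0.02 over all kept probes. Median scaling without replicate 11 gave an assembly factor median of -0.21 in KO low EF against WT. For KO low EF set against KO high EF it gave 186 and 0 calls with medians of -0.22 and -0.17, against 0.005 over all kept probes. For the slope it gave 602 and 4 calls and a subunit median of 0.07. Array weights gave 5162 and 27 calls (all and Nduf probes) in KO high EF against WT. They gave 1977 and 22 calls for KO low EF set against KO high EF, and 1942 and 18 for the slope. The prefix block gave 213 and 2 calls for KO low EF set against KO high EF, with 0 and 0 for the slope. Together with leaving out replicate 11 it gave a subunit median of -0.40 in KO low EF against WT, and 4900 and 33 calls in KO high EF against WT. It also gave an assembly factor median of -0.18 for KO low EF set against KO high EF, and 556 and 4 calls for the slope. Without a filter on dim probes 5, and with a filter at the 75th percentile 18, Nduf probes were called in KO low EF against KO high EF. In KO high EF against WT, median scaling without replicate 11 called 2289 higher and 744 lower of all probes, against 2370 and 2406 with quantile normalization. The cause of these shifts was not tested.

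With the replicate number as a block, which pairs hearts by number only, 5242 of all kept probes and 39 Nduf probes were called in KO low EF against WT. It gave 1532 and 6 calls in KO high EF against WT, and 2 and 0 calls with an assembly factor median of -0.37 in KO low EF against KO high EF. It could not be fitted for the slope.

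Signs of single probes turned mostly where replicate 11 had failed. In KO low EF against KO high EF, the values without replicate 11, with array weights, with prefix block and without it, and with median scaling and without it were -0.44, -0.41, -0.34 and -0.43 for the dimmer Ndufa5 probe, -0.31, -0.26, -0.30 and -0.30 for Ndufb10, -0.31, -0.30, -0.29 and -0.33 for Ndufs3, -0.08, -0.09, -0.06 and -0.11 for the bright Ndufs6 probe, -0.22, -0.20, -0.24 and -0.24 for Ndufs8, and -0.09, -0.11, -0.10 and -0.11 for Ndufa4 (-0.04 with the prefix block alone). Others turned at values near 0. Under median scaling these were Ndufaf3 (0.02, also without replicate 11) and the dim Ndufv3 probe (0.05, likewise) in KO low EF against WT, and one Ndufab1 probe (0.01), the dimmer Ndufs6 probe (0.05) and Ndufv1 (0.08, and 0.04 with the replicate block) in KO low EF against KO high EF. In KO high EF against WT, Ndufaf3 was -0.06 without replicate 11, -0.04 with array weights and -0.05 with prefix block and without it. Ndufaf5 was -0.06 under median scaling, -0.06 without replicate 11, -0.07 with array weights and -0.05 with prefix block and without it, and the dimmer Ndufaf8 probe was -0.02, -0.03 and -0.05 for the first 3 of these and -0.04 with median scaling and without it. The Ndufb10 probe with the higher mean was -0.17 with the replicate block in KO low EF against WT.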
